A study of Homo sapiens with 10 samples.

Results

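The proteasome genes of human embryonic stem cells were examined in polyA RNA-seq libraries of WAe009-A, the line known as H9. They were chosen by symbol alone: every gene named PSMA, PSMB, PSMC, PSMD, PSME, PSMF or PSMG followed by a number, which gave 47 of the 32152 genes counted. The groups were 5 libraries of cells labelled as KCNH2 knockout and 5 libraries of wild-type (WT) cells. KCNH2 encodes the pore-forming subunit of a cardiac potassium channel, and the series asks what its loss changes in undifferentiated cells. The titles and the growth protocol call the edited cells a knockout and the genotype field calls them a knockdown, and "knockout" is used here. Both groups were kept on Matrigel, the knockout cells in mTeSR plus and the WT cells in TeSR-E8. Medium and genotype therefore cannot be told apart in any difference given below. The labels name no clone and do not say whether a group's libraries stem from separate cultures, and the p-values cover only the spread between libraries, which may be technical.

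The 5 knockout libraries held 29788732 to 40587206 counts each, and the 5 WT libraries 28615751 to 47319933. Levels are given in CPM, counts per 1000000 of the TMM-adjusted library size, and log2 fold changes are knockout over WT throughout. KCNH2 mRNA itself measured 12.2 ± 1.001 CPM in knockout libraries and 15.5 ± 0.754 CPM in WT libraries (SD, n = 5 each), or -0.35 as a log2 fold change (edgeR adjusted p = 0.000648). Where the gene was edited is not stated in the labels, so this level says nothing of the channel protein. Knockout replicate 3, WT replicate 2 and WT replicate 3 stood apart from their groups on the second principal component, which held 28.3% of the variance of log2 CPM.

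The proteasome is the protease that degrades ubiquitin-tagged proteins in the cytosol and nucleus. Its barrel, the 20S core, stacks rings of alpha subunits, which gate the entrance, around rings of beta subunits, of which PSMB5, PSMB6 and PSMB7 carry the proteolytic sites. The 19S cap binds the substrate's ubiquitin, removes it and unfolds the substrate with a ring of ATPases. In cells exposed to interferon gamma, PSMB8, PSMB9 and PSMB10 take the places of PSMB5, PSMB6 and PSMB7 in new particles, the immunoproteasome, whose peptides suit MHC class I. Pluripotent cells are known for high proteasome activity, and the 19S lid subunit PSMD11 for a part in it.

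Most proteasome mRNAs were slightly more abundant in the knockout. Of 47 genes, 46 had enough counts to test, and 34 rose and 1 fell in the knockout at an edgeR adjusted p under 0.05, while 11 did not pass. The same rule called 21.9% of all 19163 tested genes higher and 24.1% lower. Among the 8270 tested genes that averaged at least 20 CPM, which hold every tested proteasome gene but PSMB9 and PSMB10, 34.0% were higher and 25.5% lower. The changes were small: the median log2 fold change was 0.19 over the proteasome genes, against 0.0018 over all tested genes, and the values ran from -0.21 for PSMD2 to 0.42 for PSMB10. In 32 genes every knockout library was above every WT library and in 1, PSMD2, every one was below, against 16.3% and 17.7% of all tested genes, and 26.7% and 19.3% of those of at least 20 CPM. Together the genes took 0.610% to 0.630% of all counts in knockout libraries and 0.565% to 0.595% in WT libraries, ranges that did not overlap.

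**Figure D1:**
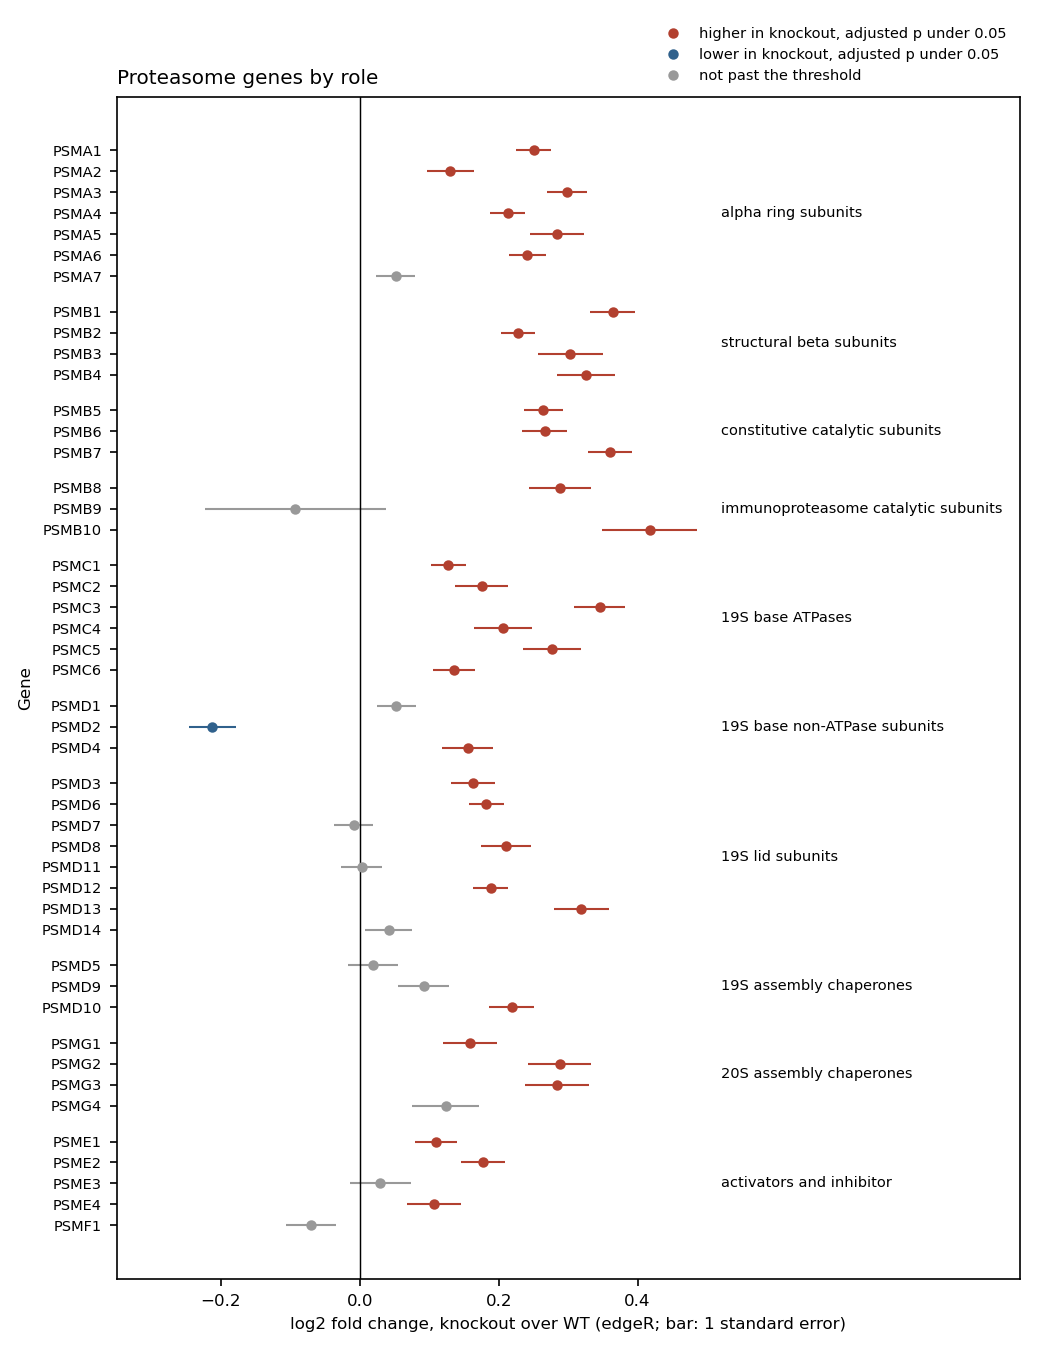
Log2 fold change of each tested proteasome gene, knockout over WT, from the edgeR fit (5 libraries each), grouped by role, with bars of 1 standard error and colour for the call at an adjusted p under 0.05. All constitutive 20S core genes lie to the right of 0, PSMD2 is the single gene called lower, and PSMB9 has the widest bar.

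The shift was seen in each library rather than in a few. Averaged over the 46 genes, log2 CPM stood 0.14, 0.16, 0.21, 0.16 and 0.20 above the WT mean in knockout replicates 1 to 5, against -0.04, 0.02, 0.0080, 0.04 and -0.04 in WT replicates 1 to 5. The lowest knockout library was thus above the highest WT library. By number of genes above their WT mean the libraries did not separate: 41 or 42 of the 46 in each knockout library, against 11, 41, 26, 42 and 8 in WT replicates 1 to 5. Without the 3 libraries that stood apart, 31 genes were higher and 1 lower. Log2 fold changes of the genes in the authors' deposited table differed from those given here by at most 0.02. A DESeq2 Wald test on the deposited counts gave 35 higher and 1 lower, against 22.6% and 22.3% of all tested genes.

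**Figure D2:**
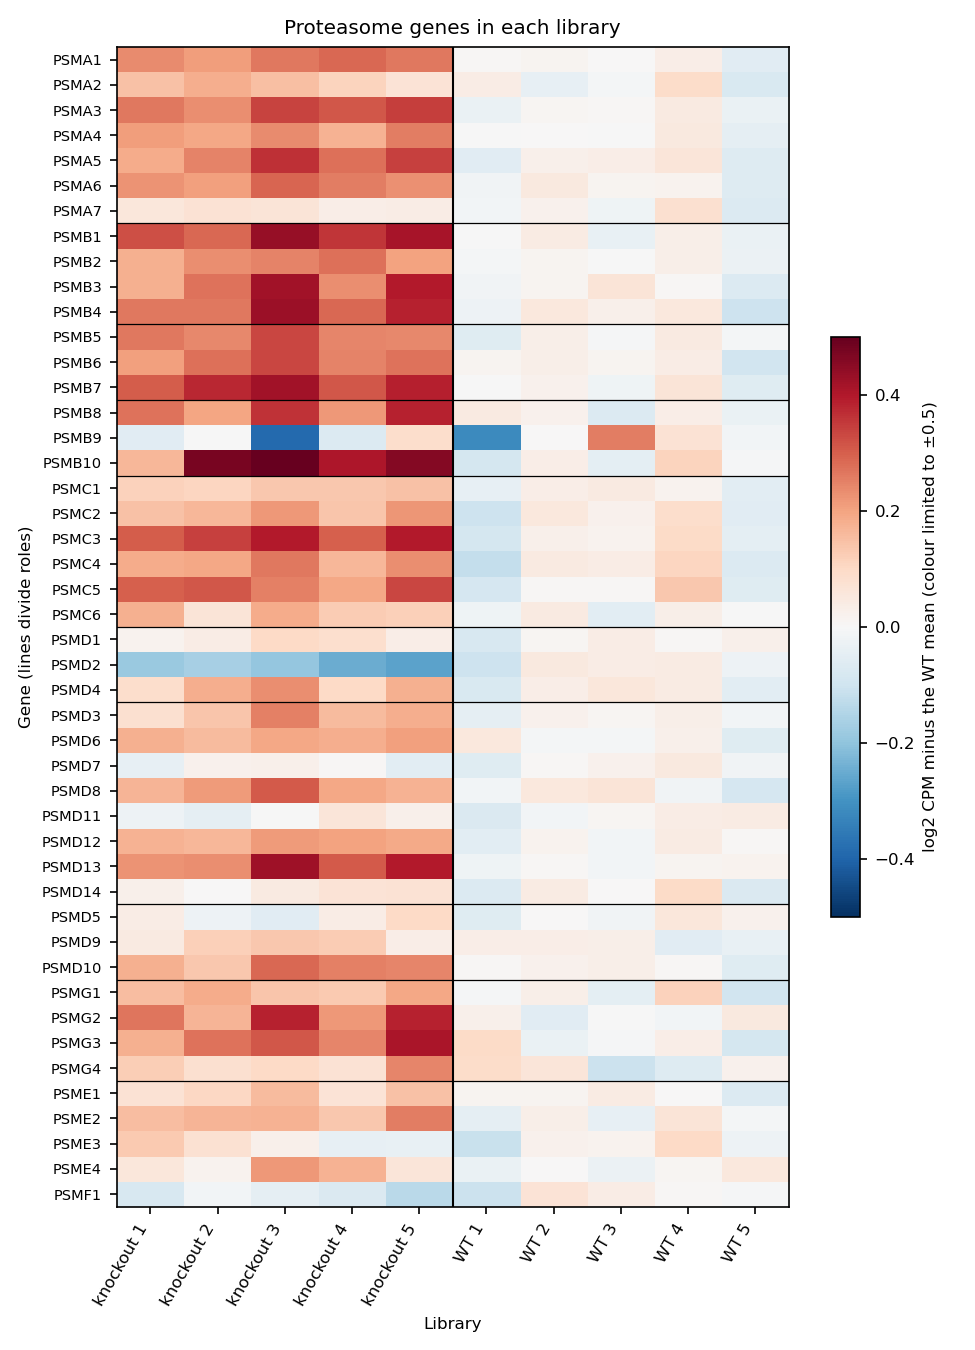
Log2 CPM of each tested proteasome gene minus its WT mean in each library, knockout libraries on the left and WT libraries on the right, with colour limited to ±0.5 and lines between roles. Red fills most of the 5 knockout columns, with PSMD2 blue in all 5, and PSMB9 is blue in knockout replicate 3 and in WT replicate 1.

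The 3 constitutive catalytic subunits all rose, where 34.0% of tested genes of at least 20 CPM were higher and 26.7% had no overlap in that direction. PSMB5, which carries the chymotrypsin-like site, had 168, 165, 176, 165 and 165 CPM in the knockout libraries and 134, 142, 139, 144 and 139 CPM in the WT libraries. The groups did not overlap, and its log2 fold change came to 0.26 (SE 0.03, edgeR adjusted p = 2.13e-05). PSMB6, with the caspase-like site, had 177, 186, 193, 182 and 185 CPM in knockout libraries and 155, 157, 155, 158 and 143 CPM in WT libraries. Its lowest knockout library was again above its highest WT library, with a log2 fold change at 0.27 (SE 0.03, edgeR adjusted p = 5.04e-05). PSMB7, with the trypsin-like site, had 158, 166, 172, 159 and 168 CPM in knockout libraries and 128, 130, 126, 134 and 123 CPM in WT libraries. It was the most changed of the 3, with no overlap and a log2 fold change at 0.36 (SE 0.03, edgeR adjusted p = 4.96e-06).

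The immunoproteasome subunits were transcribed at low levels in both groups, and 2 of the 3 rose, where 21.9% of all tested genes were higher. PSMB8, which replaces PSMB5, had 24.9, 23.6, 26.5, 24.0 and 26.9 CPM in knockout libraries and 21.3, 20.9, 19.6, 21.1 and 20.1 CPM in WT libraries. The groups did not overlap, and its log2 fold change came to 0.29 (SE 0.05, edgeR adjusted p = 0.000297). PSMB10, which replaces PSMB7, had 15.5, 19.2, 20.3, 18.3 and 19.05 CPM in knockout libraries and 13.0, 14.2, 13.4, 14.9 and 13.8 CPM in WT libraries. Knockout replicate 1 lay just above the highest WT library and the other 4 well above it, and the log2 fold change, 0.42 (SE 0.07, edgeR adjusted p = 0.000395), was the largest among the proteasome genes. PSMB9, which replaces PSMB6, was the least abundant tested gene of the set, with 1.98, 2.06, 1.56, 1.96 and 2.19 CPM in knockout libraries and 1.64, 2.07, 2.47, 2.17 and 2.04 CPM in WT libraries. Its groups overlapped, and its log2 fold change of -0.09 (SE 0.13) did not pass (edgeR adjusted p = 0.589). Its counts came to 343 over the 5 knockout libraries and 411 over the 5 WT libraries.

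Set against its constitutive partner within each library, no immunoproteasome subunit changed past the threshold. The comparison used the log2 ratio of each pair, an exact two-sided permutation test of 5 against 5 libraries, whose smallest possible p is 0.00794, and adjustment over the 3 pairs. The PSMB8 to PSMB5 ratio was -2.73 ± 0.07 in the knockout and -2.76 ± 0.06 in WT (SD, n = 5 each). The difference was 0.02, with a 95% interval from -0.08 to 0.12 (exact permutation p = 0.548, adjusted p = 0.548). After a correction for the length of all exons joined and GC content it was 0.11 (exact permutation p = 0.0714, adjusted p = 0.167). The PSMB10 to PSMB7 ratio was -3.16 ± 0.11 in the knockout and -3.21 ± 0.06 in WT, a difference of 0.05 with an interval from -0.07 to 0.155 (exact permutation p = 0.373, adjusted p = 0.548).

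The PSMB9 to PSMB6 ratio was lower in the knockout, but not after adjustment. It was -6.53 ± 0.21 in the knockout and -6.18 ± 0.21 in WT, a difference of -0.35 with an interval from -0.66 to -0.055 (exact permutation p = 0.0397, adjusted p = 0.119). By library it was -6.44, -6.46, -6.90, -6.50 and -6.36 in the knockout and -6.51, -6.21, -5.94, -6.15 and -6.10 in WT. The overlap came from WT replicate 1 alone, which lay among the knockout libraries. Without it the difference was -0.44 (exact permutation, adjusted p = 0.0238). Omitting the only overlapping library separates the groups by that choice, so this p cannot decide whether the ratio changed. Without the 3 libraries that stood apart the difference was -0.19 and did not pass, and the fold change of PSMB9 itself was then 0.077. After the correction for joined exons and GC content the difference was -0.24 (exact permutation p = 0.111, adjusted p = 0.167). Per length of transcript, PSMB8 stood at 17.3% of PSMB5 in the knockout and 17.0% in WT, PSMB9 at 1.16% of PSMB6 in the knockout and 1.48% in WT, and PSMB10 at 9.03% of PSMB7 in the knockout and 8.70% in WT.

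**Figure D3:**
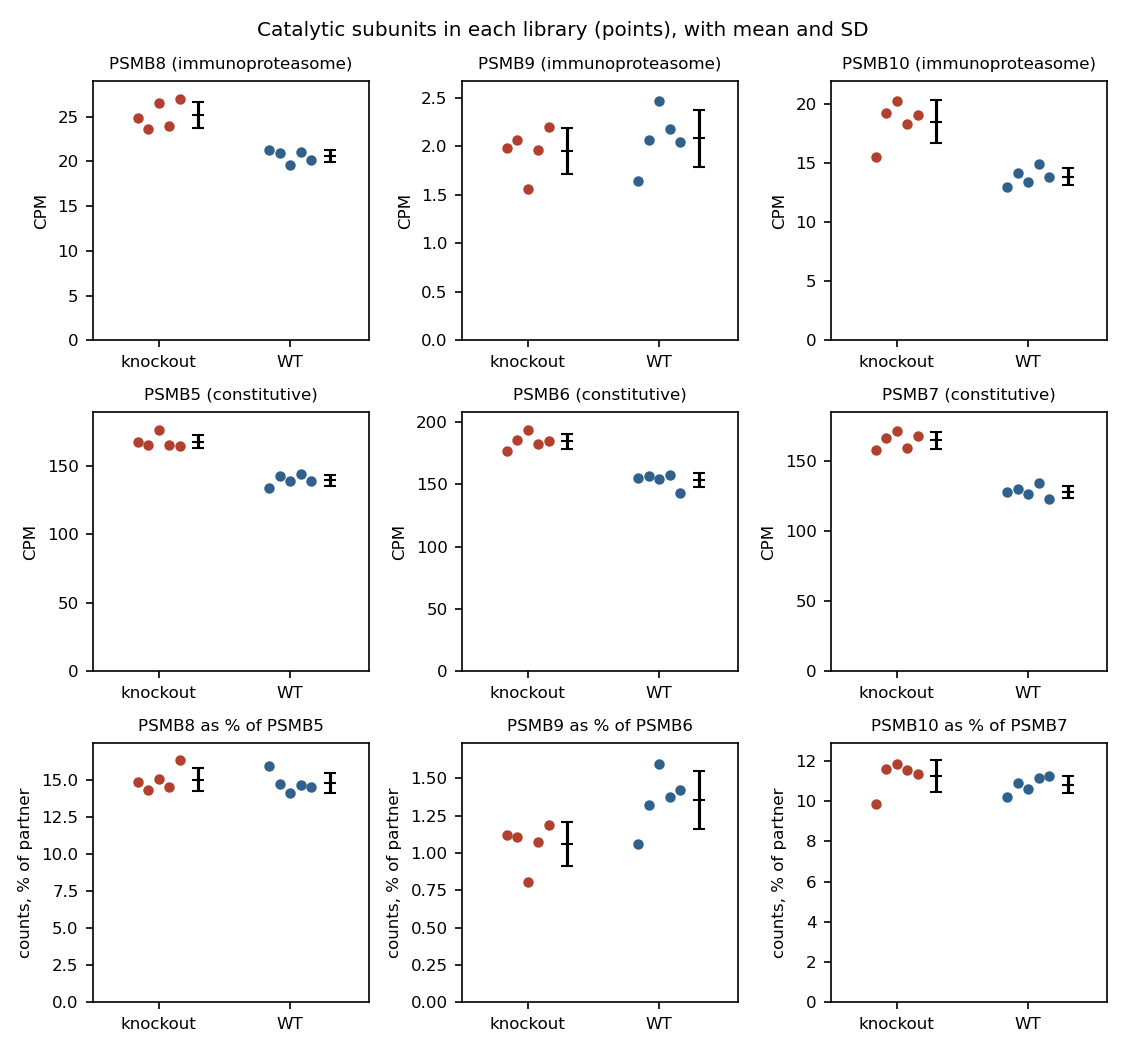
CPM of the immunoproteasome subunits (top row) and of the constitutive subunits they replace (middle row), and the counts of each as a percentage of its partner's (bottom row), in 5 knockout libraries (left) and 5 WT libraries (right), each axis from 0, with mean and SD. PSMB8, PSMB10 and all 3 constitutive subunits separate the groups, while the percentages in the bottom row overlap.

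Neighbouring genes limit what these counts assign, since the labels do not say whether counting used strand. PSMB8 (chr6:32840717-32844703, minus strand) and PSMB9 (chr6:32844136-32859585, plus strand; GENCODE 29, GRCh38) share 139 exonic bases on opposite strands. The lincRNA PSMB8-AS1 overlaps exons of both, and its counts came to 4.37% of those of PSMB8 and 49.2% of those of PSMB9. PSMB10 (chr16:67934502-67937087, minus strand) shares 34.8% of its exonic bases with AC040162.1, annotated on the same strand, whose counts came to 22.5% of its own. PSMB5 (chr14:23016543-23035230, minus strand) has no exonic overlap with another counted gene. Of 21 pseudogenes of the proteasome genes in the table, none held more than 3.21% of its parent's counts.

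The promoters of the catalytic pairs' members held by the RefSeq table, and that of the gene called lower, are shown because they set a constitutive subunit, the 3 immunoproteasome subunits and PSMD2 side by side. Each is the 250 bases before the start site on the gene's strand, 5′ to 3′ (GRCh38.p14). Capitals mark letters of 4 short motifs searched on both strands: the antioxidant response element core TGACNNNGC, bound by NRF1 and NRF2, the CCAAT box CCAAT, bound by NF-Y, the interferon-stimulated response element core, which is GAAA, any 2 bases and GAAA again, bound by interferon regulatory factors, and the GAS element TTCNNNGAA, bound by STAT dimers.
PSMB5, chr14:23035221-23035470, minus strand: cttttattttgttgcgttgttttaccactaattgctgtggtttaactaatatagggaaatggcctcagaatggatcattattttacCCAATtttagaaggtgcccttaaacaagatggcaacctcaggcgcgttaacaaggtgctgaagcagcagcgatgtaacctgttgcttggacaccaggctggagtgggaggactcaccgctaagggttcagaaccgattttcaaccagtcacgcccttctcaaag
PSMB8, chr6:32844680-32844929, minus strand: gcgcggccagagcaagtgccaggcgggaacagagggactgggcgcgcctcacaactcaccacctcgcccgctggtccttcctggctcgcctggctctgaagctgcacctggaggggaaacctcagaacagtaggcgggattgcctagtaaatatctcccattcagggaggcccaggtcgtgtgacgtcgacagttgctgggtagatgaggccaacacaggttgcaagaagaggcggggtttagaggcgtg
PSMB9, chr6:32853942-32854191, plus strand: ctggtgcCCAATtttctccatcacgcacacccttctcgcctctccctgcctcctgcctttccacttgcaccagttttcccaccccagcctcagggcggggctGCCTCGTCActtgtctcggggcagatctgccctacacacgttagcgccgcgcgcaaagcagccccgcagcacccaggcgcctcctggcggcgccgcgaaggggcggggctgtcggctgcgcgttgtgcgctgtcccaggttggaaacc
PSMB10, chr16:67936851-67937100, minus strand: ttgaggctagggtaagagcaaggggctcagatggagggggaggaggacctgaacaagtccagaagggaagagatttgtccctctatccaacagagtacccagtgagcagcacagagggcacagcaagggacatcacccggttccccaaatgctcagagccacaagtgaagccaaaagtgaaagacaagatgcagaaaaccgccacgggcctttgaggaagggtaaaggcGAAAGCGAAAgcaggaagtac
PSMD2, chr3:184298991-184299240, plus strand: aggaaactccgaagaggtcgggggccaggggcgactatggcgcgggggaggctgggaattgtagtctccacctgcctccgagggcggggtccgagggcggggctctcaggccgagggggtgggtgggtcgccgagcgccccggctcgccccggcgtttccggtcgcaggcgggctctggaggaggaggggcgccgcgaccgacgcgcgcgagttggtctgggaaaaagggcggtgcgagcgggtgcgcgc

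These windows differed in what they held. PSMB10 had an interferon-stimulated core, GAAAGCGAAA, that began 21 bases before its start, and PSMB9 had a CCAAT box and, read on the opposite strand, an antioxidant core. PSMB5 had a CCAAT box, and the windows of PSMB8 and PSMD2 matched none of the 4 motifs. The start of PSMB9 lies 488 bases from that of TAP1, a peptide transporter gene that runs the other way, so they share their upstream region. TAP1 measured 23.5 ± 0.756 CPM in knockout libraries and 20.4 ± 0.545 CPM in WT libraries (SD, n = 5 each), a log2 fold change of 0.21 (edgeR adjusted p = 0.000501), while its neighbour PSMB9 did not pass.

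Over the 41 proteasome genes with a RefSeq promoter (250 bases before to 50 after the start), 13 (31.7%) held the antioxidant core, against 13.6% of 27305 promoters of the same length. The interferon-stimulated core was in 6 (14.6%), against 3.65%. Those 6 were PSMA4, PSMB4, PSMB10, PSME1, PSME2 and PSMG4, and GAAAGCGAAA occurred within 33 bases upstream of the start in PSMB10, PSME2 and PSMG4. The CCAAT box was in 18 (43.9%), against 35.7%, and the GAS element in 5 (12.2%), against 7.88%. Of the 29 of these genes called higher, 9 held the antioxidant core, 5 the interferon-stimulated core, 14 the CCAAT box and 3 the GAS element. These matches are a description of letters, not of bound sites, and a link to the fold changes was not tested.

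The other core genes moved with the catalytic ones. All 4 structural beta subunits rose, with a median log2 change of 0.31. Of tested genes of at least 20 CPM, 34.0% were higher and 26.7% had every knockout library above every WT library. PSMB1 had 221, 215, 239, 226 and 235 CPM in knockout libraries and 176, 181, 172, 180.1 and 173 CPM in WT libraries. These groups did not overlap either, and the gene rose by 0.36 on the log2 scale (SE 0.03, edgeR adjusted p = 4.98e-06). PSMB4 had 291, 290.4, 326, 295 and 316 CPM in knockout libraries and 238, 251, 246, 251 and 225 CPM in WT libraries. It too showed no overlap, with a log2 fold change at 0.33 (SE 0.04, edgeR adjusted p = 7.02e-05). PSMB3 rose by 0.30 and PSMB2 by 0.23 on the log2 scale.

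In the alpha ring, 6 of 7 tested genes rose, with a median log2 change of 0.24. Of tested genes of at least 20 CPM, 34.0% were higher, 25.5% lower, and 26.7% had every knockout library above every WT library. PSMA3, PSMA5, PSMA1, PSMA6 and PSMA4 rose by 0.30, 0.28, 0.25, 0.24 and 0.21 on the log2 scale, each with its knockout libraries above all WT libraries. PSMA2 rose by 0.13 with overlapping groups (edgeR adjusted p = 0.00814), and did not pass without the 3 libraries that stood apart. After the correction for transcript length and GC content, 3 alpha ring genes were higher and 1 lower, with a median of 0.04, and with joined exons 6 were higher and 1 lower, with a median of 0.19. PSMA7, one of the most abundant core mRNAs, was the exception, with 258 ± 2.87 CPM in knockout libraries and 249 ± 9.45 CPM in WT libraries (SD, n = 5 each; log2 fold change 0.05, edgeR adjusted p = 0.152). PSMA8, the alpha subunit of germ cell proteasomes, had 2 counts in all, both in knockout replicate 3, and was not tested. In sum, 13 of the 14 constitutive 20S core genes tested were higher and none lower, with a median log2 change of 0.27.

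The 19S cap rose less evenly. Of 17 subunit genes, 12 were higher and 1 lower, with a median log2 change of 0.16. Of tested genes of at least 20 CPM, 34.0% were higher, 25.5% lower, and 26.7% had every knockout library above every WT library. All 6 ATPases of the unfolding ring were higher, led by PSMC3 and PSMC5. PSMC3 had 195, 200.3, 208, 194 and 208 CPM in knockout libraries and 149, 161, 159.9, 169 and 153 CPM in WT libraries. These groups did not overlap, and its log2 fold change came to 0.35 (SE 0.04, edgeR adjusted p = 1.91e-05). PSMC5, PSMC4, PSMC2, PSMC6 and PSMC1 rose by 0.28, 0.21, 0.18, 0.14 and 0.13 on the log2 scale, all without overlap. Exons of PSMC1 and PSMC5 overlap NRDE2 and FTSJ3 on the opposite strand, over 75.8% and 19.5% of their exonic bases.

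Among the base subunits that are not ATPases, PSMD2 went the other way. It is the large scaffold at the rim of the base on which shuttle factors that deliver ubiquitinated proteins dock. PSMD2 had 336, 341, 334, 322 and 317 CPM in knockout libraries and 356, 395, 392, 393 and 375 CPM in WT libraries. Every knockout library was below every WT library, and the gene fell by 0.21 on the log2 scale (SE 0.03, edgeR adjusted p = 0.000381). PSMD1, the scaffold beside it, did not pass, with 231 ± 5.64 CPM in knockout libraries and 223 ± 6.91 CPM in WT libraries (SD, n = 5 each; edgeR adjusted p = 0.146). PSMD4, a ubiquitin receptor, rose by 0.16 on the log2 scale (edgeR adjusted p = 0.00447).

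Of the 8 lid subunits, 5 rose and none fell, with a median log2 change of 0.17. Among tested genes of at least 20 CPM, 34.0% were higher and 25.5% lower. PSMD13 had 145, 146, 167, 154 and 164 CPM in knockout libraries and 123, 125, 123, 126 and 126 CPM in WT libraries. Its knockout libraries were all higher and more spread than its WT libraries, with a log2 fold change at 0.32 (SE 0.04, edgeR adjusted p = 5.48e-05). PSMD8, PSMD12, PSMD6 and PSMD3 rose by 0.21, 0.19, 0.18 and 0.16 on the log2 scale. The lid's deubiquitinase pair did not pass, with PSMD14, the catalytic member, at 114 ± 2.23 CPM in knockout libraries and 111 ± 5.47 CPM in WT libraries, and PSMD7, its partner, at 144 ± 3.63 CPM in knockout libraries and 145 ± 4.24 CPM in WT libraries (SD, n = 5 each; edgeR adjusted p = 0.342 and 0.821). PSMD11, the subunit linked to proteasome activity in pluripotent cells, measured 124 ± 3.58 CPM in knockout libraries and 124 ± 3.96 CPM in WT libraries (log2 fold change 0.0030, edgeR adjusted p = 0.944).

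The log2 difference between core and cap was seen library by library. The mean over the 14 core genes minus the mean over the 17 cap genes, each relative to WT, was 0.10, 0.11, 0.13, 0.12 and 0.12 in knockout replicates 1 to 5, against 0.05, -0.0047, -0.01, -0.0030 and -0.03 in WT replicates 1 to 5. Each knockout library was above each WT library. Core transcripts were also shorter, with a median of 1012.5 bases against 1991 bases for the cap genes, and after a correction for transcript length and GC content the median log2 fold changes were 0.12 for the core and 0.11 for the cap. With the length of all exons joined in place of 1 transcript, they were 0.20 for the core and 0.15 for the cap.

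Genes that build the particle followed it in part. Of the 4 chaperones of 20S assembly, 3 rose: PSMG2 by 0.29, PSMG3 by 0.28 and PSMG1 by 0.16 on the log2 scale. Among tested genes of at least 20 CPM, 34.0% were higher. PSMG4 had 32.4 ± 1.62 CPM in knockout libraries and 29.7 ± 1.73 CPM in WT libraries (SD, n = 5 each; edgeR adjusted p = 0.0528), and its annotated exons overlap SLC22A23 and TUBB2B on the opposite strand. Of the 3 chaperones of the 19S base, PSMD10, also known as gankyrin, rose by 0.22 on the log2 scale. PSMD9 had 24.2 ± 0.818 CPM in knockout libraries and 22.7 ± 0.677 CPM in WT libraries (edgeR adjusted p = 0.0556), and PSMD5 44.7 ± 1.9 CPM in knockout libraries and 44.1 ± 1.32 CPM in WT libraries (edgeR adjusted p = 0.696). POMP, the maturation factor of the 20S core, which the symbol rule does not take, had 111 ± 4.49 CPM in knockout libraries and 91.6 ± 3.8 CPM in WT libraries, a log2 fold change of 0.28 (edgeR adjusted p = 8.73e-05).

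Of the 4 activators and 1 inhibitor that bind the ends of the core, 3 rose. Among tested genes of at least 20 CPM, 34.0% were higher and 26.7% had no overlap in that direction. PSME1 and PSME2, which form the interferon-inducible activator, rose by 0.11 and 0.18 on the log2 scale (edgeR adjusted p = 0.0107 and 0.00074), both without overlap. PSME1 did not pass without the 3 libraries that stood apart (edgeR adjusted p = 0.057) and stood at -0.065 after the transcript length correction and -0.033 with joined exons, and PSME2 did not pass after the transcript length correction (0.054, edgeR adjusted p = 0.131). PSME4, a large activator linked to histone degradation, rose by 0.11 with overlapping groups (edgeR adjusted p = 0.0408), and did not pass without the 3 libraries that stood apart. PSME3, the nuclear activator, had 178 ± 9.15 CPM in knockout libraries and 175 ± 9.27 CPM in WT libraries, and the inhibitor PSMF1 had 68.1 ± 2.17 CPM in knockout libraries and 71.4 ± 3.25 CPM in WT libraries (SD, n = 5 each; edgeR adjusted p = 0.605 and 0.136).

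Levels of different genes were set side by side only per length, as CPM per kilobase of transcript. By the WT mean the order began with PSMB4 (315 in the knockout, 251 in WT), PSMA7 (259 in the knockout, 250.1 in WT), PSMB1 (245 in the knockout, 190.2 in WT) and PSMB6 (217 in the knockout, 180.1 in WT). PSMB5 stood at 129.6 in the knockout and 108 in WT, and PSMB7 at 168 in the knockout and 131 in WT. PSMB8, PSMB10 and PSMB9 stood at ranks 40, 44 and 46 of 47, with 22.4, 15.2 and 2.50 CPM per kilobase in the knockout and 18.3, 11.4 and 2.66 in WT. Only PSMA8 was lower than PSMB9. A single annotated transcript gave each length, some with long ends such as the 4411 bases of PSMA4, so the order depends on that choice.

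**Figure D4:**
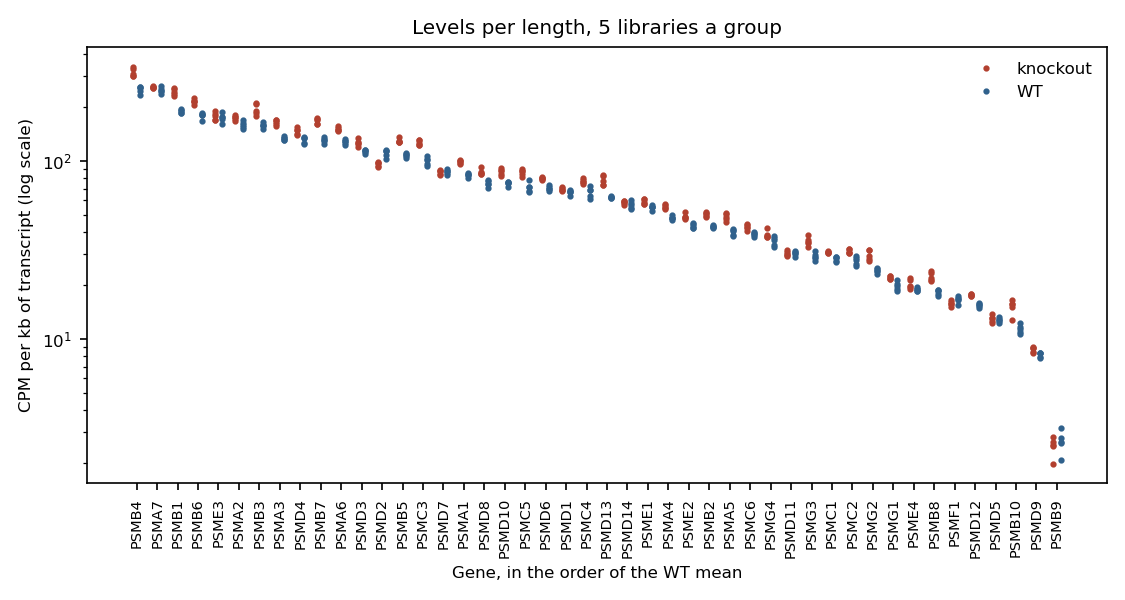
CPM per kilobase of transcript on a log scale for the 46 tested proteasome genes, in the order of the WT mean, with the 5 knockout libraries left of the 5 WT libraries for each gene. PSMB9 lies below all others at about 2.50 in the knockout and 2.66 in WT, and PSMB10 and PSMB8 lie near the low end among chaperones and PSMF1.

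Fold changes in these libraries were related to transcript length, and proteasome transcripts are short. Their median length was 1566 bases, against 3313 bases over the 11347 protein-coding genes that averaged 5 CPM or more. Across those genes, Spearman's rho of log2 fold change and transcript length was -0.43, a description over genes that share the same libraries. The 36 proteasome genes shorter than that median had 29 higher and none lower. Over all lengths, 21.9% of tested genes were higher and 24.1% lower. The shares among all genes of such length were not counted, so the 29 cannot be set against them. The 10 longer ones had 5 higher and 1 lower, with a median log2 change of 0.08.

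After each library was corrected for transcript length and GC content, 24 proteasome genes were higher and 4 lower, with a median log2 change of 0.10, against 20.4% higher and 23.9% lower of all tested genes. PSMA7, PSMD7 and PSME3 joined PSMD2 among those lower, with log2 fold changes of -0.12, -0.12 and -0.15, and PSMD2 stood at -0.16. Of the risen genes given library by library above, all but PSMB6, at 0.07 (edgeR adjusted p = 0.0708), stayed past the threshold. PSMB10 stood at 0.26, PSMC3 at 0.25, PSMD13 at 0.28, PSMB7 at 0.17, PSMB1 at 0.16, PSMB4 at 0.14, and PSMB5 and PSMB8 at 0.13. Besides PSMB6, another 10 risen genes did not pass after this correction: PSMA2, PSMA3, PSMA6, PSMB3, PSMC6, PSMD4, PSMD6, PSMD10, PSME1 and PSME2, with log2 fold changes from -0.065 for PSME1 to 0.091 for PSMB3. Of the 14 constitutive core genes 8 were then higher and 1 lower, and of the 17 cap genes 9 were higher and 2 lower. With the length of all exons joined in place of 1 transcript, 34 were higher and 3 lower, with a median of 0.16, against 21.3% and 24.2% of all tested genes. PSMB6 then passed (edgeR adjusted p = 0.0144), while PSMC2, PSMD10, PSME1 and PSMG1 did not.

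**Figure D5:**
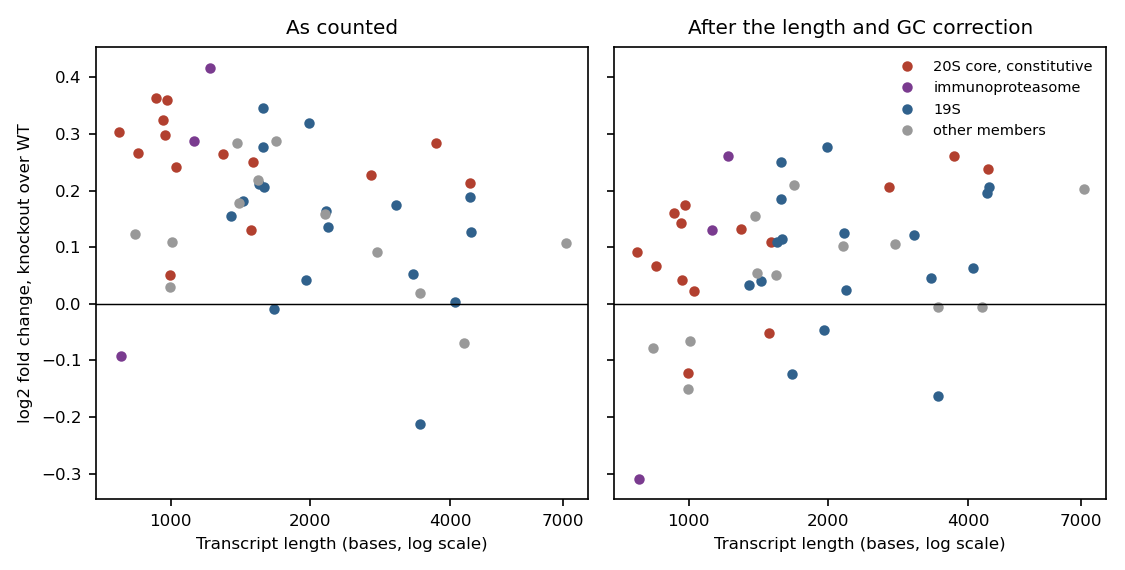
Log2 fold change of the 46 tested proteasome genes, knockout over WT, against transcript length in bases on a log scale, as counted (left panel) and after the correction for transcript length and GC content (right panel), coloured by role. By median the core genes lie above the cap genes on the left, at 0.27 against 0.16, and near them on the right, at 0.12 against 0.11. PSMB10 is the highest point on the left. PSMB9 is the lowest point after the correction, at -0.31 (edgeR adjusted p = 0.0771).

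The other parts of the pathway did not move as one. Their counts are to be read against all tested genes, of which 21.9% were higher and 24.1% lower. Among those of at least 20 CPM, 34.0% were higher and 25.5% lower. Among 11 partners of the proteasome outside the symbol rule, 6 were higher and 1 lower, with a median log2 change of 0.17. SEM1, a small lid subunit, rose by 0.40, UCHL5, a deubiquitinase of the cap, by 0.33, and TXNL1, a redox protein bound to the cap, by 0.30 on the log2 scale. The gene called lower was ECPAS, an adaptor that bridges core and cap, which fell by 0.11. Among 8 genes of the NRF1 pathway, which raises proteasome transcription when the proteasome is inhibited, 1 was higher and 3 lower, with a median of -0.06. NFE2L1, which encodes NRF1, had 292 ± 19.01 CPM in knockout libraries and 305 ± 3.92 CPM in WT libraries (SD, n = 5 each; edgeR adjusted p = 0.228). OGT, SEL1L and DDI2, the protease that activates NRF1, fell by 0.40, 0.32 and 0.25, and NFE2L2, which encodes NRF2, rose by 0.19 on the log2 scale.

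Of 11 ubiquitin and shuttle genes, 6 were higher and 3 lower, with a median log2 change of 0.08. UBB, which encodes polyubiquitin, rose by 0.21, and UBQLN1, a shuttle factor, fell by 0.13 on the log2 scale. Of 13 genes of MHC class I presentation and interferon control, 3 were higher and 5 lower, with a median of -0.11. Of all tested genes, 21.9% were higher and 24.1% lower, and of those of at least 20 CPM, 34.0% and 25.5%. IFNGR2, a chain of the interferon gamma receptor, rose by 0.53, while STAT2 and ERAP1 fell by 0.29 and 0.32 on the log2 scale. IRF1, which drives PSMB9 transcription after interferon and was named after its value was seen, fell by 0.55, with 4.73 ± 0.574 CPM in knockout libraries and 6.91 ± 0.628 CPM in WT libraries (edgeR adjusted p = 0.000663).

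Markers of the labelled cell type were present in both groups. Of 8 pluripotent markers, 4 rose and none fell, where 21.9% of all tested genes were higher and 24.1% lower. Among tested genes of at least 20 CPM, 34.0% were higher and 25.5% lower. POU5F1, NANOG, LIN28A and L1TD1 rose by 0.30, 0.28, 0.22 and 0.08 on the log2 scale. The summed level of the 8 markers was 7610 to 8025 CPM in the knockout libraries and 6792 to 7086 CPM in the WT libraries. Among leukocyte markers, which could carry immunoproteasome mRNA, PTPRC, CD3E and CD14 held at most 8 counts over the 5 knockout libraries and 10 over the 5 WT libraries. CD4 was lower and CD74 did not pass, and the 8 together summed to 54.7 to 59.9 CPM in knockout libraries and 59.8 to 63.8 CPM in WT libraries, nearly all CD74. Of 4 tested fibroblast markers, COL1A1 and COL1A2 fell by 0.52 and 0.74 on the log2 scale, PDGFRB and THY1 did not pass, COL3A1 was near 0, and the sum ran from 831 to 955 CPM in knockout libraries and from 950.4 to 1027 CPM in WT libraries. In bulk RNA, fewer cells of a type and less RNA per cell cannot be told apart.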

How the data were processed

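The libraries were made from polyA RNA of WAe009-A cells and read as 150-cycle pairs (NovaSeq-6000), per the labels' protocols. Sample titles gave the groups and replicate numbers. For each library the authors deposited raw counts by gene. Per the submitters' processing notes, hg38, DESeq2 and R 3.6.3 were used. For the aligner, counting tool, annotation and strandedness, nothing was given in the sources used here. A second deposited table holds the authors' own comparison: per gene, a mean normalised signal, a log2 fold change and its error, a test score and a p-value, raw and adjusted. Symbols came from it, and its fold changes were compared with those computed here.

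Testing used edgeR 4.0.16 under R 4.3.3, with a quasi-likelihood fit (glmQLFit, glmQLFTest) that had group as its single factor, after TMM and filterByExpr. P-values were adjusted over 19163 genes (Benjamini-Hochberg, threshold 0.05). Ratios used log2 CPM with a prior count of 2 and exact permutation tests in Python 3.11.15; the 95% interval of a ratio holds the shifts its test does not reject. For the length and GC correction, natural splines of 5 degrees of freedom were fitted per library to log2 CPM of protein-coding genes from 1 CPM up and used as offsets; 98.9% of tested genes had both properties. The edgeR fit was tested on simulated counts, and the permutation test on a made-up case of known answer. The length and GC correction and the motif search were not tested in this way. Gene positions follow GENCODE 29 (GRCh38, the same assembly as hg38) and promoters RefSeq (GRCh38.p14).

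Where a library has no count of a gene, 3 counts is the upper limit, equal to between 0.0634 and 0.105 CPM, for counting error only. Libraries of one group differed beyond sampling noise. Each was treated as a replicate, though the labels do not say whether they stem from separate cultures. Genes and lists were chosen with earlier results of these data known. Every library's value is printed for PSMB5 to PSMB10 and for the 6 largest rises and up to 6 falls past the threshold, and of each other list at most 4 genes by p; IRF1, NFE2L1 and ECPAS were named outside that rule, with their values seen. Alternatives were the size factors and Wald test of DESeq2 1.42.0, voom in limma 3.58.1, other filters on low counts (none, or 1 CPM in 5 libraries), the replicate number as a block, ratios of raw counts, 2 length corrections and the omission of libraries. PSMB11 was not analysed here, and some genes that the naming rule takes are not reported here.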

Additional observations from a re-analysis of the deposited data

Results flagged for a closer look

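Of 98 groups of 5 libraries examined, 7 held a library whose gap to its nearest neighbour, as a share of the group's range, was above Dixon's 95% critical value, and chance gives about 1 in 20. PSMB5 measured 176 CPM in knockout replicate 3, against 165 to 168 CPM in the other knockout libraries. PSMG4 measured 35.2 CPM in knockout replicate 5, against 31.3 to 32.3 CPM in the other knockout libraries. In WT replicate 5, PSMB6 measured 143 CPM and PSMD10 111 CPM, against 155 to 158 CPM and 116 to 118 CPM in the other WT libraries. PSMD1 measured 211 CPM in WT replicate 1, against 224 to 228 CPM in the other WT libraries. The PSMB9 to PSMB6 log2 ratio was -6.90 in knockout replicate 3, against -6.50 to -6.36 in the other knockout libraries. The PSMB10 to PSMB7 log2 ratio was -3.34 in knockout replicate 1, against -3.14 to -3.08 in the other knockout libraries. Without that library the difference between knockout and WT was 0.097 (exact permutation p = 0.0238, adjusted p = 0.0714). The library was singled out by its value of this same ratio, so the smaller p cannot decide whether the ratio changed.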

How the results depend on the processing

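The 34 proteasome genes called higher became 33 to 36 under other scaling, tests and filters, 31 without the 3 libraries that stood apart, 33 to 35 without single libraries, and 24 under the transcript length correction (34 with joined exons). The 1 gene called lower became 4 under the transcript length correction and 3 with joined exons, and 1 to 2 without single libraries, with PSMF1 beside PSMD2 when WT replicate 1 was left out. PSMB8, PSMB10 and PSMD2 kept their calls under every alternative. PSME4 lost its call under 9 of them, and of the markers L1TD1 under 12 and CD4 under 7. The PSMB8 to PSMB5 difference was -0.0029 under the transcript length correction, 0.11 with joined exons, -0.0011 without the 3 libraries and -0.0086 to 0.0496 without single libraries. The PSMB9 to PSMB6 difference was -0.37 under the transcript length correction and -0.24 with joined exons. It was -0.44 to -0.26 without single libraries. It passed only without WT replicate 1, the single library that overlapped the knockout, so that pass cannot decide whether the ratio changed.

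The other reversals were of small log2 fold changes. Under the transcript length correction, these were -0.052 for PSMA2, -0.12 for PSMA7, -0.0050 for PSMD5, -0.046 for PSMD14, -0.065 for PSME1, -0.15 for PSME3, -0.078 for PSMG4 and 0.11 for PDGFRB. With joined exons they were -0.093 for PSMA7, -0.022 for PSMD5, -0.033 for PSME1 and 0.056 for PDGFRB. PSMD7 stood at 0.0015 with DESeq2 size factors and in its Wald test. PSMD11 stood at -0.00088 and THY1 at -0.0033 with the filter of 1 CPM. THY1 stood at -0.0017 with voom and, without the 3 libraries, at -0.0051, where PSMB9 stood at 0.077. Without single libraries, PSMD5 ran from -0.0013 to 0.038, PSMD7 from -0.024 to 0.012, PSMD11 from -0.015 to 0.022, PDGFRB from -0.058 to 0.0012 and THY1 from -0.025 to 0.055. The cause was not tested.

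The labels do not say whether a replicate number marks a shared batch. Same-numbered libraries had correlations of their deviations from -0.16 to 0.70, and not each correlated best with its own number. These few correlations cannot settle whether the numbers pair the libraries. The replicate block gave 33 genes higher and 1 lower and put THY1 at -0.0019. A paired exact sign-flip test of the ratios, whose smallest p is 0.0625, gave adjusted p of 0.75 for PSMB8 and 0.375 for PSMB9 and PSMB10. Depth left PSMA8 untested, with 2 counts in all, and PSMB9 had 343 counts in knockout libraries and 411 in WT libraries.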
